A study of Mus musculus with 12 samples.

Results

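The proteins that dock, prime and fuse synaptic vesicles belong to a small number of gene families, and the genes of these families were followed through 3 preparations of adult mouse dorsal root ganglia (DRG). Members were taken by symbol with no filter on expression, although the choice was made with earlier results of these data known. They were the numbered synaptotagmin (Syt), syntaxin (Stx), syntaxin-binding (Stxbp), vesicle-associated membrane protein (Vamp), complexin (Cplx), synapsin (Syn), Snap and Sv2 genes. These were 59 of the 24490 genes listed, and the counts and sums below cover 57 of them. Polyadenylated RNA was sequenced from whole DRG frozen without dissociation (intact), from freshly dissociated DRG cells (unsorted) and from dissociated cells passed through magnetic cell sorting (MACS-sorted), with 4 biological replicates of each. All mice were adult male C57Bl/6, and an intact sample was made from 1 mouse, an unsorted sample from a pool of 2 and a MACS-sorted sample from a pool of 8. In the sort, an antibody cocktail against non-neuronal cells held those cells on a column and the flow-through was kept, so that neurons were not themselves selected by a marker. The values are FPKM, fragments per kilobase of transcript, scaled to the mapped total of the sample, which take account of transcript length and allow levels of different genes to be set side by side.

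Vesicle release rests on SNARE proteins, in which Vamp on the vesicle zips together with syntaxin and Snap25 on the plasma membrane and pulls both membranes into contact. Syntaxin-binding proteins guide this assembly, complexins bind the assembled SNAREs, and synaptotagmins on the vesicle trigger fusion when calcium enters. Synapsins tether vesicles in reserve, and SV2 glycoproteins sit in the vesicle membrane. In sensory neurons the same proteins release glutamate and neuropeptides from nerve endings in the spinal cord and the periphery, and they also serve membrane delivery in the cell body, which is the part of the neuron that a DRG sample holds.

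Samples within a group were not equally alike. Intact replicate 1 differed from the other intact samples by a median of 0.300 to 0.337 on the log2 scale, against 0.0915 to 0.107 among those, and unsorted replicates 1 and 2 were the closest pair, at 0.0671. Haemoglobin genes made up 0.680%, 0.864%, 5.14% and 7.13% of the summed FPKM in MACS-sorted replicates 1 to 4 and at most 0.259% in any other sample, and 7 of the 8 red blood cell markers tested were higher in MACS-sorted than in unsorted samples. Markers of the cells in the preparation moved strongly in the same comparison. The large-diameter neuron list (Pvalb, Nefh, Ntrk3, Runx3, Spp1, Cntnap2 and Kcnc1) was called lower for 6 of 7 genes, with summed levels of 828 to 1030 FPKM in unsorted and 80.3 to 152 FPKM in MACS-sorted samples, and the nociceptor list was called higher for 6 of 7. Of the pan-neuronal list 1 of 7 was called higher and 0 lower. At a limma adjusted p-value under 0.05, 3 of these genes were higher and 1 was lower, which was Tubb3 at a log2-fold change of −0.38. Lower calls made up 5 of 6 satellite glia, 5 of 6 Schwann cell and 5 of 6 fibroblast markers, and 0 of the tested endothelial (6), macrophage (2) and platelet (1) markers were called, although both macrophage genes and the platelet gene had limma adjusted p-values under 0.05. Satellite glia markers summed to 2234 to 2810 FPKM in unsorted and 89.9 to 200 FPKM in MACS-sorted samples. A bulk sample cannot tell fewer cells of a type from less RNA per cell, and the part that cell composition had in the results for the release genes was not tested.

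Most of the machinery was expressed in DRG, at levels that differed widely between genes. Of the 57 genes, 37 exceeded 5 FPKM in all 4 intact samples, 37 in all 4 unsorted and 33 in all 4 MACS-sorted samples, and 33 did so in all 12. Snap25 was the most abundant member in intact and unsorted DRG and Vamp2 in MACS-sorted samples, and Syt11 was in place 3 in each group. A mean under 1 FPKM in every group was found for 6 genes: Syt8, Syt10, Syt17, Cplx3, Cplx4 and Stx19, the last of which was listed at 0 in all 12 samples. Summed over the 57 genes, release machinery made up 0.702% of the summed FPKM in intact replicate 1, 0.906% to 0.955% in the other intact samples, 1.04% to 1.09% in unsorted samples and 0.803% to 0.916% in those from the sort. The sum over 4 fusion SNAREs (Snap25, Stx1a, Vamp1 and Vamp2) was 1072 to 1158 FPKM in unsorted and 663 to 772 FPKM in MACS-sorted samples, and complexins lay in the same order, at 490.2 to 549.8 FPKM and at 237 to 286 FPKM. The summed level of the 4 calcium sensors of release lay the other way, at 197 to 215 FPKM in unsorted and 221 to 296 FPKM in MACS-sorted samples.

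**Figure D1:**
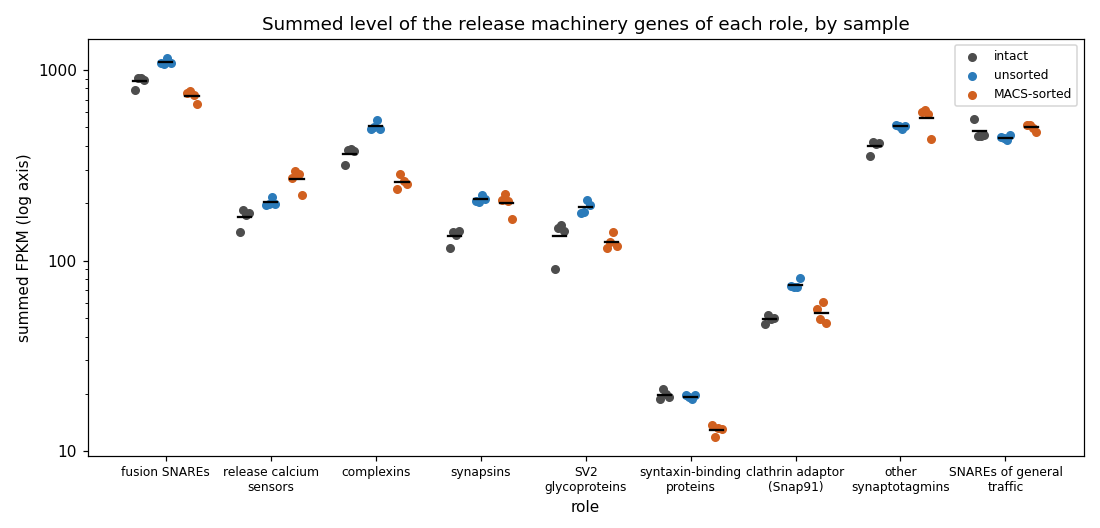
Summed FPKM (log axis) of the release machinery genes of each role in the 4 intact, 4 unsorted and 4 MACS-sorted samples; points are samples and black lines group means. Fusion SNAREs, complexins and SV2 glycoproteins lie without overlap below the unsorted samples after the sort, and the release calcium sensors lie higher, at 221 to 296 against 197 to 215 FPKM.

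Comparison of MACS-sorted with unsorted DRG asks which genes differ after the sort. As given above, glial and fibroblast markers were lower after it, large-diameter neuron markers were also lower, and red blood cell markers were higher. To be called, a gene needed a limma adjusted p under 0.05, group means more than 0.5 apart as a log2 ratio, and over 5 FPKM on average in its higher group. Of the 50 members tested, 8 were called higher and 11 lower in MACS-sorted samples, 38% in all, where 20.7% of the 12038 genes tested were called in either direction, 8.15% higher and 12.5% lower. The higher members were Stx1a, Stx2, Stx3, Syt1, Syt4, Syt5, Syt7 and Syt9. The lower members were Snap25, Vamp1, Vamp3, Syt2, Syt3, Syt12, Cplx1, Cplx2, Syn2, Sv2b and Stxbp6. The median log2-fold change of the members was 0.03, against −0.04 over all genes tested, and their range ran from −4.18 to 1.31. The 4 samples of one group lay apart from the 4 of the other in 29 members, higher after sorting in 15 and lower in 14, where 18.4% and 27.8% of all genes tested did so. Quantile normalization moved the median of all genes from −0.04 to 0.10 and the split of all calls from 981 higher and 1505 lower to 1387 and 1281, and the members then stood at 10 higher and 10 lower. Without MACS-sorted replicates 3 and 4, the samples richest in haemoglobin, 10 members were called higher and 12 lower, among them 7 and 10 of those named.

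**Figure D2:**
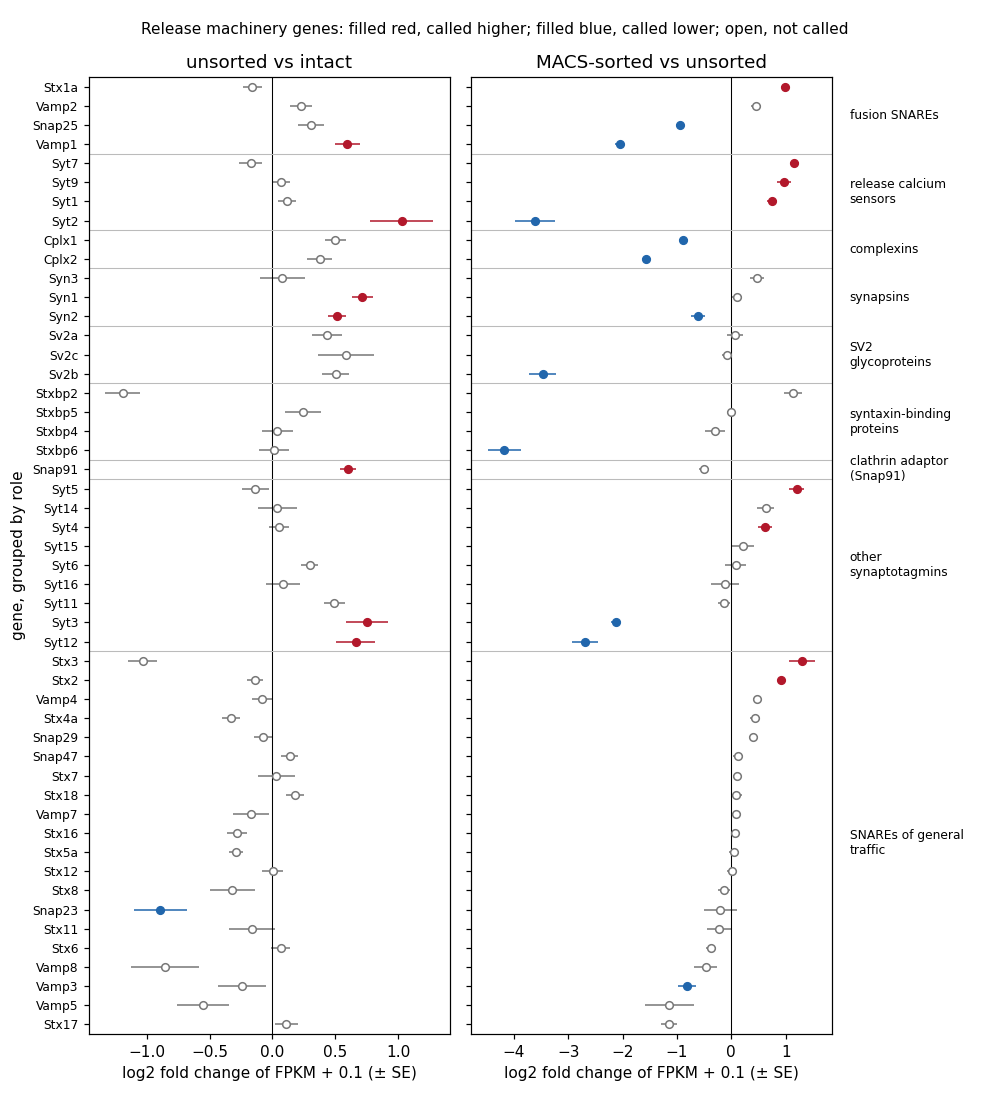
Log2-fold change of FPKM + 0.1 with its standard error for every release machinery gene tested, grouped by role, for unsorted against intact (left) and MACS-sorted against unsorted DRG (right); filled red points were called higher, filled blue points lower and open points were not called. The x axes differ, and members of one family fall on both sides of 0 on the right, from −4.18 for Stxbp6 to 1.31 for Stx3.

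Among the fusion SNAREs, Snap25 and Vamp1 were lower in MACS-sorted than in unsorted samples, Stx1a was higher, and Vamp2 was not called. Snap25 encodes the plasma membrane SNARE that supplies 2 of the helices of the fusion complex, and stood at 399, 524, 538 and 504 FPKM in intact, 581, 589.9, 641 and 607 FPKM in unsorted and 333, 319, 304 and 301 FPKM in MACS-sorted replicates 1 to 4. The unsorted samples were the highest of all 12 and the MACS-sorted samples the lowest, without overlap. Between them the log2-fold change on the log2(FPKM + 0.1) scale was −0.94 ± 0.072 (SE, limma adjusted p = 7.7e-06), a 1.92-fold lower mean.

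Vamp1 (synaptobrevin 1), on chromosome 6 of mm10 from 125215581 to 125222306, and Vamp2 (synaptobrevin 2), on chromosome 11 from 69088528 to 69092381, encode the vesicle SNAREs of neurons. The annotated coding sequences of both agree at 76.4% of 347 aligned bases, and the longest exact stretch that any of their transcripts share is 18 bases, while reads were 100 bases long. A stretch of 186 coding bases of each is printed from GENCODE M21, coding bases 84 to 269 of Vamp1 and 78 to 263 of Vamp2, because the contrast between these genes rests on reads that tell them apart. Capitals mark the 33 bases that differ, and no gap was needed to align them.
Vamp1: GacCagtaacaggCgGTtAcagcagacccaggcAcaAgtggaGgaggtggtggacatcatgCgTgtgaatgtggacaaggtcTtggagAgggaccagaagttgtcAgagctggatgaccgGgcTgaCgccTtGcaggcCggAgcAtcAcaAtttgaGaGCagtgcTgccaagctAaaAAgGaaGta
Vamp2: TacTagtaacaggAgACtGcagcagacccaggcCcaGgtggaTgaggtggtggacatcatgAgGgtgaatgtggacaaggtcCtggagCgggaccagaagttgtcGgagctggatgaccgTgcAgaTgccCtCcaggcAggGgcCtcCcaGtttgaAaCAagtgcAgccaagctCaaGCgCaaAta

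Vamp1 stood at 136, 161, 178 and 159 FPKM in intact, 237, 215, 269 and 235 FPKM in unsorted and 60.9, 54.3, 61.9 and 52.7 FPKM in MACS-sorted replicates 1 to 4. Its MACS-sorted values were the lowest of all 12 samples and well apart from the intact and the unsorted ones. Against unsorted DRG the log2-fold change was −2.06 ± 0.087 (SE, limma adjusted p = 3.6e-07), or a 4.17-fold lower mean. Vamp2 stood at 235, 212, 179 and 203 FPKM in intact, 249, 252, 232 and 234 FPKM in unsorted and 334, 369, 348 and 282 FPKM in MACS-sorted replicates 1 to 4. Here the MACS-sorted samples were the highest of the 12, and the log2-fold change against unsorted samples was 0.46 ± 0.091 (SE, limma adjusted p = 0.0026). Vamp2 was not called, since the log2 ratio of its group means, 0.46, was under 0.5, but it was called with median-ratio size factors, under quantile normalization, without MACS-sorted replicate 4 and without replicates 3 and 4, at fold changes of 0.50 to 0.54 on the log2 scale.

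Stx1a encodes a plasma membrane syntaxin of neurons. Stx1a stood at 15.4, 16.2, 15.6 and 17.1 FPKM in intact, 15.2, 14.1, 15.3 and 13.0 FPKM in unsorted and 28.6, 30.0, 29.1 and 26.7 FPKM in MACS-sorted replicates 1 to 4. All MACS-sorted samples exceeded all others, with a log2-fold change against unsorted DRG of 0.99 ± 0.075 (SE, limma adjusted p = 7.3e-06) and a 1.99-fold higher mean.

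The 4 calcium sensors of release were all called between MACS-sorted and unsorted samples, Syt2 lower and Syt1, Syt7 and Syt9 higher. Syt1 and Syt2 are closely related low-affinity sensors that drive fast, synchronous release, Syt9 serves a similar role in fewer cell types, and Syt7 is a high-affinity sensor of slower release. Syt2, on chromosome 1 from 134646681 to 134749417, stood at 17.7, 37.3, 41.5 and 36.1 FPKM in intact, 58.0, 56.1, 78.5 and 67.6 FPKM in unsorted and 10.5, 3.48, 6.97 and 2.74 FPKM in MACS-sorted replicates 1 to 4. The MACS-sorted values were the lowest and were spread widely, from replicate 4 to replicate 1, but none reached the lowest intact sample. Set against unsorted samples, the log2-fold change was −3.62 ± 0.36 (SE, limma adjusted p = 4e-05), and the mean was 11.0-fold lower.

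Syt1, on chromosome 10 from 108497650 to 109010975, stood at 53.3, 63.0, 57.0 and 61.0 FPKM in intact, 66.1, 66.2, 59.9 and 61.4 FPKM in unsorted and 101, 119, 118 and 90.7 FPKM in MACS-sorted replicates 1 to 4. Intact and unsorted samples overlapped and every MACS-sorted sample lay above them, with a log2-fold change against unsorted DRG of 0.75 ± 0.095 (SE, limma adjusted p = 0.00016). Syt7 stood at 34.7, 44.7, 41.6 and 45.2 FPKM in intact, 36.5, 37.3, 38.2 and 34.7 FPKM in unsorted and 79.3, 92.4, 84.1 and 73.2 FPKM in MACS-sorted replicates 1 to 4. Its MACS-sorted samples were again above all others, with a 2.24-fold higher mean than in unsorted samples and a log2-fold change of 1.16 ± 0.079 (SE, limma adjusted p = 3.9e-06). Syt9 stood at 35.1, 38.3, 32.9 and 34.8 FPKM in intact, 36.2, 38.1, 38.2 and 35.8 FPKM in unsorted and 80.6, 81.6, 77.2 and 54.0 FPKM in MACS-sorted replicates 1 to 4. MACS-sorted replicate 4 was the lowest of its group but still above all intact and unsorted samples, and the log2-fold change was 0.96 ± 0.12 (SE, limma adjusted p = 0.00018). Within the sum of Syt1, Syt2 and Syt9, the share of Syt2 was 35.0% to 44.5% before and 1.70% to 5.48% after sorting, and that of Syt9 21.6% to 23.7% and 36.6% to 41.9%.

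The sequence before the start of a gene holds much of its promoter, and 250 bases are printed for Vamp1 and Syt2, which were lower in MACS-sorted samples, and for Syt1, which was higher. They come from RefSeq on GRCm38.p6, the assembly of mm10, and read 5′ to 3′ on the strand of the gene, at chr6:125215331-125215580 on the plus strand for Vamp1, chr1:134646362-134646611 on the plus strand for Syt2 and chr10:109010976-109011225 on the minus strand for Syt1. The RefSeq start used for Syt2 lies 69 bases from the start in the deposited annotation, and that of the others coincides with it. Capitals mark matches on either strand to the GC box GGGCGG or to CCAAT, which appear as CCGCCC and ATTGG on the other strand.
Vamp1: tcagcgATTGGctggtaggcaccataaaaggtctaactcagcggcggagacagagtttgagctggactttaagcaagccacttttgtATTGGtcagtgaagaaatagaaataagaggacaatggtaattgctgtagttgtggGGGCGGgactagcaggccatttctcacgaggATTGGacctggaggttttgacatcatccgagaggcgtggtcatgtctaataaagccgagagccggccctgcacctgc
Syt2: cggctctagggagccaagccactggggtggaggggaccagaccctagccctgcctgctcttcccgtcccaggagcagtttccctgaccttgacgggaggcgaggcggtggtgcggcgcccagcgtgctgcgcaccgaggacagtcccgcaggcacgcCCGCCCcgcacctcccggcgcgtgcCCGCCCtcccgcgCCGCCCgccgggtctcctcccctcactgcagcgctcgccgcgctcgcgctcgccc
Syt1: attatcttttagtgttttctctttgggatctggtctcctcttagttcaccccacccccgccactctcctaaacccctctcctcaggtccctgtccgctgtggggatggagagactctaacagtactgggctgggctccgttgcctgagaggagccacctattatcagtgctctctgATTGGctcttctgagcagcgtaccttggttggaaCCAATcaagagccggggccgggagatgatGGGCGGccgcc
The GC box occurred 3 times before Syt2, once before Vamp1 and once before Syt1, and CCAAT occurred 3 times before Vamp1, 2 times before Syt1 and 0 times before Syt2. None of the 3 windows held TATAAA or the cyclic AMP response element TGACGTCA, and no printed match overlaps another. Windows of this length were found for 45 of the 57 members, 60 in all, of which 55.0% held the GC box, 26.7% CCAAT, 6.67% TATAAA and 1.67% TGACGTCA, against 32.7%, 33.8%, 12.4% and 1.55% of the 32851 windows of all genes. These are matches of letters in a window and not binding sites.

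Complexins, which bind the assembled SNARE complex and both restrain and promote its fusion, were lower in MACS-sorted than in unsorted samples for both members that DRG expressed. Cplx1 stood at 268, 317, 327 and 315 FPKM in intact, 411, 422, 477 and 423 FPKM in unsorted and 213, 258, 234 and 231 FPKM in MACS-sorted replicates 1 to 4. The 3 groups did not overlap, with unsorted samples highest and MACS-sorted samples lowest, and the log2-fold change between these was −0.89 ± 0.083 (SE, limma adjusted p = 2.6e-05). Cplx2 stood at 47.8, 62.6, 58.8 and 60.5 FPKM in intact, 79.5, 77.7, 73.1 and 67.5 FPKM in unsorted and 23.9, 28.2, 25.9 and 22.5 FPKM in MACS-sorted replicates 1 to 4. Its groups were in the same order without overlap, and the log2-fold change was −1.57 ± 0.087 (SE, limma adjusted p = 1.3e-06), a 2.96-fold lower mean. Cplx3 and Cplx4, which serve ribbon synapses of the retina, reached at most 0.0380 FPKM in any sample and were not tested.

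The synapsins coat synaptic vesicles and hold them in reserve. Syn1 stood at 74.9, 91.3, 89.1 and 92.6 FPKM in intact, 141, 138, 154 and 138 FPKM in unsorted and 155, 177, 156 and 131 FPKM in MACS-sorted replicates 1 to 4. MACS-sorted and unsorted samples overlapped and both lay above all intact samples, and the log2-fold change with sorting was 0.11 ± 0.094 (SE, limma adjusted p = 0.37). Syn2 stood at 41.2, 47.9, 46.2 and 48.4 FPKM in intact, 63.5, 63.2, 66.2 and 69.4 FPKM in unsorted and 50.0, 44.3, 48.0 and 31.7 FPKM in MACS-sorted replicates 1 to 4. It was called lower in MACS-sorted than in unsorted samples, at −0.61 ± 0.13 (SE, limma adjusted p = 0.0039), but without MACS-sorted replicate 4, the lowest sample, the log2-fold change was −0.47 and the call was lost. Syn3 was much the least abundant synapsin, at 1.15, 2.16, 1.81 and 1.86 FPKM in intact, 1.85, 1.75, 1.84 and 1.78 FPKM in unsorted and 2.58, 2.74, 2.55 and 2.28 FPKM in MACS-sorted replicates 1 to 4. Samples from the sort did not overlap the lower unsorted ones, with a log2-fold change of 0.47 ± 0.13 (SE, limma adjusted p = 0.013), but its mean did not exceed 5 FPKM and it was not called. Syn3 shares 14.1% of its exonic bases with Timp3 on the opposite strand, and although the library kit was directional, whether FPKM were computed by strand is not given in the sources used here.

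Of the SV2 glycoproteins, which are vesicle transporters and receptors for botulinum neurotoxin, Sv2b alone was called after sorting. Sv2b stood at 38.2, 49.6, 52.7 and 48.0 FPKM in intact, 62.0, 63.2, 71.8 and 69.4 FPKM in unsorted and 8.61, 3.42, 7.87 and 5.20 FPKM in MACS-sorted replicates 1 to 4. The intact samples lay below the unsorted ones, and the MACS-sorted samples lay far below both. After sorting, Sv2b was changed by −3.47 ± 0.25 (SE, limma adjusted p = 5.3e-06) on the log2 scale, a 10.6-fold lower mean. Sv2a stood at 13.1, 16.9, 17.0 and 18.4 FPKM in intact, 19.7, 20.5, 24.3 and 23.8 FPKM in unsorted and 16.8, 26.5, 24.2 and 25.9 FPKM in MACS-sorted replicates 1 to 4. MACS-sorted and unsorted samples overlapped, and the log2-fold change of 0.06 ± 0.15 (SE, limma adjusted p = 0.75) turned to −0.0056 without MACS-sorted replicate 2 and to −0.061 without replicates 3 and 4. Sv2c stood at 39.3, 82.5, 83.5 and 76.8 FPKM in intact, 97.2, 95.4, 112 and 102 FPKM in unsorted and 90.9, 95.1, 109 and 88.9 FPKM in MACS-sorted replicates 1 to 4. The MACS-sorted and unsorted samples of Sv2c also overlapped, at −0.08 ± 0.084 (SE, limma adjusted p = 0.44), and intact replicate 1 was the lowest of all 12 samples.

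**Figure D3:**
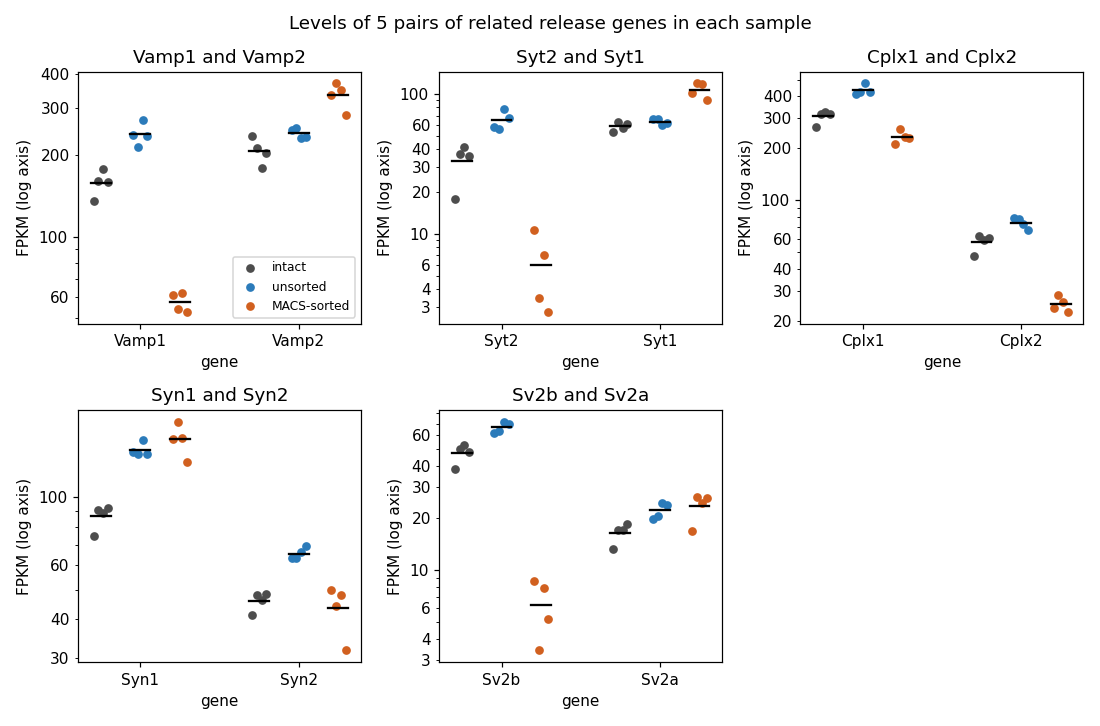
FPKM (log axes, which differ between panels) of 5 pairs of related release genes in each of the 4 intact, 4 unsorted and 4 MACS-sorted samples; points are samples and black lines group means. Vamp1, Syt2, Cplx1, Cplx2, Syn2 and Sv2b of MACS-sorted samples lie below the unsorted range, while Vamp2 and Syt1 lie above it.

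Among syntaxin-binding proteins, Stxbp6 was called lower in MACS-sorted than in unsorted samples. Stxbp6 (amisyn), a SNARE-like protein that binds syntaxin and Snap25, stood at 9.90, 7.51, 7.51 and 6.81 FPKM in intact, 8.17, 7.85, 7.17 and 8.55 FPKM in unsorted and 0.489, 0.151, 0.261 and 0.618 FPKM in MACS-sorted replicates 1 to 4. The intact and unsorted samples overlapped and no MACS-sorted sample reached 1 FPKM. The log2-fold change was −4.18 ± 0.31 (SE, limma adjusted p = 6.1e-06), and the mean was 20.9-fold lower. With a pseudocount of 1 the log2-fold change was −2.71, less negative than those of Syt2 and Sv2b, and Stxbp6 was left untested by a filter at a mean of 5 FPKM. Stxbp2 (Munc18-2), used for secretion outside neurons, had means of 1.18 ± 0.0975 FPKM before and 2.74 ± 0.430 FPKM after sorting (SD, n = 4 each), with a log2-fold change of 1.14 ± 0.16 (SE, limma adjusted p = 0.00034) that was not called at this level. Stxbp4 and Stxbp5 (tomosyn) had log2-fold changes of −0.30 and −0.0096.

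The remaining 13 synaptotagmins include 9 that could be tested, of which Syt4 and Syt5 were called higher and Syt3 and Syt12 lower in MACS-sorted samples. Syt5, a calcium-binding synaptotagmin of vesicles and granules, stood at 36.6, 29.6, 25.5 and 28.9 FPKM in intact, 28.5, 28.4, 26.1 and 25.9 FPKM in unsorted and 71.0, 78.0, 59.6 and 46.8 FPKM in MACS-sorted replicates 1 to 4. All MACS-sorted samples lay above all others, at a log2-fold change of 1.20 ± 0.14 (SE, limma adjusted p = 0.0001) and a 2.34-fold higher mean. Syt4, which lacks calcium-dependent lipid binding and is found on dense-core vesicles, stood at 91.7, 103, 96.6 and 105 FPKM in intact, 106, 104, 90.5 and 111 FPKM in unsorted and 184, 164, 169.5 and 122 FPKM in MACS-sorted replicates 1 to 4. Its MACS-sorted samples were the highest of the 12 and its log2-fold change was 0.62 ± 0.13 (SE, limma adjusted p = 0.0027), although 14.5% of its exonic bases are shared with a gene on the opposite strand. Syt3, a calcium-binding synaptotagmin of the plasma membrane and endosomes, stood at 6.15, 9.14, 11.3 and 9.99 FPKM in intact, 14.7, 14.8, 17.0 and 14.3 FPKM in unsorted and 3.33, 3.48, 3.25 and 3.54 FPKM in MACS-sorted replicates 1 to 4. Its 4 MACS-sorted values differed little and lay below all others, with a log2-fold change of −2.12 ± 0.084 (SE, limma adjusted p = 2.5e-07) and a 4.46-fold lower mean.

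Syt12, a synaptotagmin without calcium binding, stood at 2.34, 3.98, 3.64 and 3.25 FPKM in intact, 5.52, 4.98, 5.68 and 4.62 FPKM in unsorted and 0.842, 0.506, 1.14 and 0.523 FPKM in MACS-sorted replicates 1 to 4. The MACS-sorted samples were the lowest and the unsorted samples the highest, without overlap. The log2-fold change was −2.70 ± 0.24 (SE, limma adjusted p = 1.9e-05), but the unsorted mean of 5.20 ± 0.489 FPKM (SD, n = 4) was close to the 5 FPKM limit and the call was lost under quantile normalization and with a filter at a mean of 5 FPKM, and 17.2% of the exonic bases of Syt12 are shared with a gene on the opposite strand. Syt11, a relative of Syt4, was the most abundant synaptotagmin, at 230.4 ± 24.9 FPKM in intact, 323 ± 4.21 FPKM in unsorted and 296 ± 41.6 FPKM in MACS-sorted samples (SD, n = 4 each), and had a log2-fold change of −0.14 that was not called. Syt6, Syt15 and Syt16 were not called either, with log2-fold changes from −0.12 to 0.22 and overlapping groups. Syt14 was at 0.63 ± 0.15 (SE, limma adjusted p = 0.0068), with every MACS-sorted above every unsorted sample. Its MACS-sorted mean of 3.69 FPKM was under the 5 FPKM limit, so it was not called.

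SNAREs of general membrane traffic, a class that includes those of the Golgi, endosomes and constitutive secretion, numbered 21, and 20 of them were tested. Of these, 2 were called higher and 1 lower in MACS-sorted than in unsorted samples, 10% and 5%. Of all genes tested, 8.15% were called higher and 12.5% lower. The median log2-fold change of these SNAREs was 0.06. Stx2, a plasma membrane syntaxin, stood at 28.7, 31.6, 30.8 and 31.4 FPKM in intact, 28.1, 28.3, 28.7 and 26.0 FPKM in unsorted and 52.9, 54.4, 53.7 and 49.7 FPKM in MACS-sorted replicates 1 to 4. The MACS-sorted samples lay close together and above all others, with a log2-fold change of 0.92 ± 0.061 (SE, limma adjusted p = 3.4e-06) and a 1.90-fold higher mean. Stx3, a syntaxin of apical membranes and ribbon synapses, stood at 3.98, 5.34, 4.38 and 4.92 FPKM in intact, 2.13, 1.99, 2.25 and 2.49 FPKM in unsorted and 4.40, 5.06, 4.51 and 9.78 FPKM in MACS-sorted replicates 1 to 4. Its MACS-sorted samples exceeded the unsorted ones but overlapped the intact samples. The call, at a log2-fold change of 1.31 ± 0.24 (SE, limma adjusted p = 0.0015), rested on MACS-sorted replicate 4, without which the fold change was 1.04 and the mean did not exceed 5 FPKM. Vamp3 (cellubrevin), a vesicle SNARE of recycling endosomes, stood at 22.4, 14.0, 14.6 and 12.1 FPKM in intact, 13.4, 14.8, 10.3 and 13.9 FPKM in unsorted and 6.95, 5.56, 8.24 and 9.21 FPKM in MACS-sorted replicates 1 to 4. All MACS-sorted samples lay below all unsorted and intact samples, at −0.81 ± 0.17 (SE, limma adjusted p = 0.003).

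The other traffic SNAREs were not called between MACS-sorted and unsorted samples. Stx12 and Stx7 of endosomes had means of 75.1 ± 8.38 FPKM against 74.2 ± 4.01 FPKM and of 70.3 ± 3.40 FPKM against 65.1 ± 4.83 FPKM (SD, n = 4 each), with log2-fold changes of 0.01 and 0.11. Vamp4 and Snap29, of the trans-Golgi network and of several membranes, had log2-fold changes of 0.47 ± 0.065 (SE, limma adjusted p = 0.00029) and 0.41 ± 0.083 (SE, limma adjusted p = 0.0029) with non-overlapping groups, under the limit of 0.5. Vamp4 was called higher with median-ratio size factors, under quantile normalization and without MACS-sorted replicates 3 and 4. It was also called higher with the red blood cell list removed and samples scaled to the same summed FPKM. These log2-fold changes were 0.51 to 0.53. Stx4a, a plasma membrane syntaxin, was at 0.43 ± 0.087 (SE, limma adjusted p = 0.0028) and was called higher with median-ratio size factors and without MACS-sorted replicates 3 and 4, at 0.49 and 0.58. Snap23, the widely expressed relative of Snap25, stood at 5.90, 4.28, 5.59 and 4.41 FPKM in intact, 3.11, 3.45, 1.71 and 2.66 FPKM in unsorted and 1.55, 2.03, 2.09 and 4.11 FPKM in MACS-sorted replicates 1 to 4. Its MACS-sorted and unsorted samples overlapped, and the log2-fold change of −0.20 ± 0.3 (SE, limma adjusted p = 0.62) turned to 0.21 under quantile normalization. Vamp8, a SNARE of endosomes and regulated secretion in non-neuronal cells, had a log2-fold change of −0.48 ± 0.21 (SE, limma adjusted p = 0.094) and was called lower without MACS-sorted replicate 4, at −0.68. Stx17, a SNARE of autophagosomes, was below 5 FPKM and had a log2-fold change of −1.15 ± 0.16 (SE, limma adjusted p = 0.00024). Vamp7 is listed on an unlocalized scaffold of the X chromosome and was not found in the annotation used for overlaps. Snap91 (AP180) bears the Snap symbol but is a clathrin adaptor that retrieves vesicle proteins after fusion, and it stood at 46.3, 51.6, 49.5 and 50.1 FPKM in intact, 73.8, 72.4, 72.8 and 81.0 FPKM in unsorted and 55.5, 49.4, 60.6 and 47.2 FPKM in MACS-sorted replicates 1 to 4. All its MACS-sorted samples lay below all unsorted samples, at −0.50 ± 0.087 (SE, limma adjusted p = 0.0012), but the log2 ratio of group means, −0.496, missed the limit. It was called lower with unsorted replicate 1, 2 or 3 or MACS-sorted replicate 1 or 3 left out, at −0.51 to −0.57.

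Ratios of related genes within a library do not depend on the scaling between libraries, so 5 pairs were compared as log2 ratios with exact two-sided permutation tests of 4 samples against 4, for which 0.0286 is the smallest p-value possible, adjusted over 10 tests (5 pairs in each of both comparisons). In all 5 pairs the MACS-sorted and unsorted samples did not overlap, with an exact permutation p of 0.0286 and an adjusted p of 0.0408. The Syt2 to Syt1 ratio differed most, being 20.7-fold lower in MACS-sorted samples (log2 difference −4.37). Syt2 accounted for 46.7%, 45.9%, 56.7% and 52.4% of the pair's summed FPKM in unsorted and for 9.42%, 2.84%, 5.57% and 2.93% in MACS-sorted replicates 1 to 4. The Sv2b to Sv2a ratio was 11.6-fold lower (log2 difference −3.54), and Sv2b made up 74.4% to 75.9% of the pair before and 11.4% to 33.9% after sorting. The Vamp1 to Vamp2 ratio was 5.70-fold lower (log2 difference −2.51), and Vamp1 made up 46.0% to 53.7% of its pair before and 12.8% to 15.8% after sorting.

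Vamp1 and Vamp2 together were at 468 to 502 FPKM in unsorted and 334 to 423 FPKM in MACS-sorted samples, and Syt1 and Syt2 together at 122 to 138 and 93.5 to 125 FPKM. The sum of Sv2b and Sv2a was 81.7 to 96.2 FPKM in unsorted and 25.4 to 32.1 FPKM in MACS-sorted samples, that of Cplx1 and Cplx2 was 490.2 to 549.8 and 237 to 286 FPKM, and that of Syn1 and Syn2 was 201 to 219.8 and 162 to 221 FPKM. In the opposite direction, with smaller shifts, were Cplx1 to Cplx2 and Syn1 to Syn2, whose ratios were 1.60-fold and 1.65-fold higher in MACS-sorted samples (log2 differences 0.68 and 0.72). The summed level of the large-diameter neuron markers moved in the same samples, as given above, and no test related it to these pairs. Coding sequences of the 5 pairs agree at 68.0% to 79.6% of aligned bases, and the longest exact stretch shared by any of their transcripts is 15 to 32 bases.

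**Figure D4:**
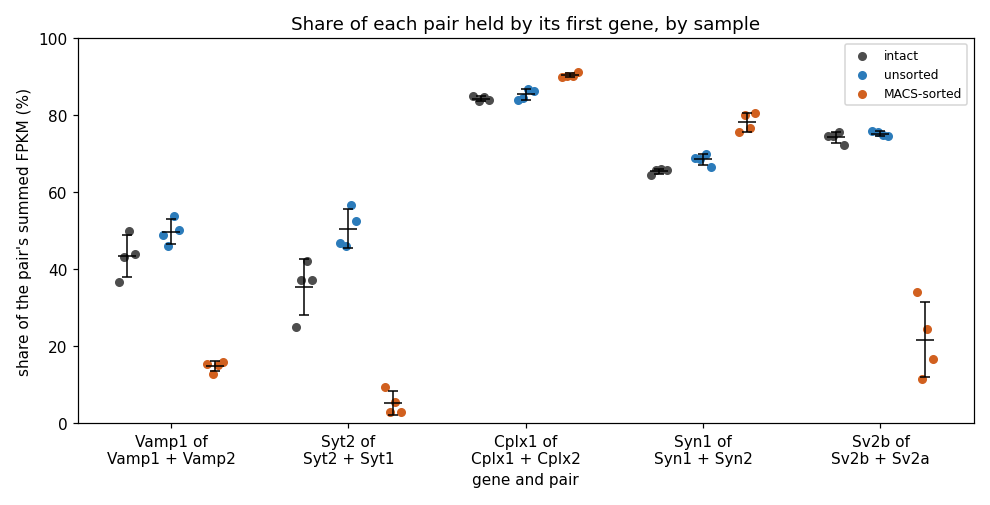
Share of each pair's summed FPKM held by its first gene (percent, linear axis from 0 to 100) in the 4 intact, 4 unsorted and 4 MACS-sorted samples; points are samples, and black bars mean and SD. Syt2 falls to 2.84% to 9.42% of its pair in MACS-sorted samples, and Vamp1 to 12.8% to 15.8%.

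Comparison of unsorted with intact DRG asks what dissociation changes, and it shares the unsorted samples with the comparison above, so a low or high unsorted value moves both. Of the 49 members tested, 7 were called higher and 1 lower in unsorted samples, 16.3% in all, where 7.04% of the 12392 genes tested were called, 4.29% higher and 2.76% lower. The higher members were Syn1, Syn2, Vamp1, Syt2, Syt3, Syt12 and Snap91, and the lower member was Snap23. Their median log2-fold change was 0.07, against 0.01 over all genes, with a range from −1.19 to 1.03. All 4 unsorted samples lay above all 4 intact samples in 16 members and below them in 10, where 20.8% and 12% of all genes tested did so. Quantile normalization and removal of the red blood cell list changed the share of higher genes among all calls from 60.8% to 50.5% and 44.5%. They gave 5 higher members each and 1 and 2 lower ones. The removal also scaled each sample to the same summed FPKM over the other genes, and these steps were not run apart. The list summed to 219 to 633 FPKM in intact and 108 to 353 FPKM in unsorted samples. All genes summed to 345341 FPKM in intact replicate 1, 283676 to 293648 FPKM in the other intact and 302657 to 307782 FPKM in unsorted samples. Without intact replicate 1, which stands apart, 6 members were called higher, all among those named, and 1 lower, which was Vamp8 at a log2-fold change of −0.55.

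The largest of these calls was Syt2, with a log2-fold change between unsorted and intact samples of 1.03 ± 0.25 (SE, limma adjusted p = 0.021), whereas sorting gave −3.62. The call for Syt2 was lost without unsorted replicate 3 or 4 and in a fit on all 12 samples. Syt3 was at 0.76 ± 0.17 (SE, limma adjusted p = 0.016) and Vamp1 at 0.60 ± 0.1 (SE, limma adjusted p = 0.006), with every unsorted above every intact sample. Syt12 was at 0.66 ± 0.16 (SE, limma adjusted p = 0.02), a call that was lost without unsorted replicate 1 or 3, with a filter at a mean of 5 FPKM, under quantile normalization, with the red blood cell list removed and in a fit on all 12 samples. Between MACS-sorted and unsorted samples, a comparison that uses the same unsorted libraries, Syt3, Vamp1 and Syt12 were at −2.12, −2.06 and −2.70.

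Syn1 was higher in unsorted than in intact samples by 0.72 ± 0.084 (SE, limma adjusted p = 0.0019), a 1.64-fold higher mean, and unlike the genes above it had overlapping unsorted and MACS-sorted samples. Snap91 was at 0.60 ± 0.067 (SE, limma adjusted p = 0.0016), with no overlap between groups. Syn2 was at 0.51 ± 0.073 (SE, limma adjusted p = 0.0033), close to the limit, and the call was lost without intact replicate 1 or unsorted replicate 4, under quantile normalization and with the red blood cell list removed. Snap23, the only member called lower, was at −0.89 ± 0.21 (SE, limma adjusted p = 0.019), with unsorted samples of 1.71 to 3.45 FPKM below intact samples of 4.28 to 5.90 FPKM. Its intact mean of 5.05 ± 0.822 FPKM (SD, n = 4) barely passed 5 FPKM, and the call was lost under quantile normalization or size factors and without intact replicate 1 or 3.

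Several members with non-overlapping groups stayed just outside the calls. Cplx1 and Sv2b had log2-fold changes between unsorted and intact samples of 0.50 ± 0.085 (SE, limma adjusted p = 0.0061) and 0.51 ± 0.11 (SE, limma adjusted p = 0.013), with log2 ratios of means of 0.498 and 0.499. Cplx1 was called without intact replicate 2, 3 or 4 or unsorted replicate 1, 2 or 4, at 0.51 to 0.53, and Sv2b without intact replicate 2, 3 or 4 or unsorted replicate 1 or 2, at 0.52 to 0.56. Vamp8 was at −0.86 ± 0.27 (SE, limma adjusted p = 0.052) and was called lower in 7 alternatives, among them median-ratio size factors, quantile normalization and leaving out intact replicate 1, its highest sample. Snap25 and Sv2c had fold changes of 0.31 ± 0.1 (SE, limma adjusted p = 0.056) and 0.59 ± 0.22 (SE, limma adjusted p = 0.091), with every unsorted above every intact sample. Stx3 and Stxbp2, both under 5 FPKM, had the most negative values, −1.03 ± 0.12 (SE, limma adjusted p = 0.0016) and −1.19 ± 0.14 (SE, limma adjusted p = 0.0018). Syt1, Syt9 and Vamp2 had overlapping groups and log2-fold changes of 0.12, 0.07 and 0.23. Among the within-library ratios, Syt2 to Syt1 was 1.88-fold and Syn1 to Syn2 1.15-fold higher in unsorted than in intact samples, each with an exact permutation p of 0.0286 and an adjusted p of 0.0408. The ratios of Vamp1 to Vamp2, Sv2b to Sv2a and Cplx1 to Cplx2 had exact permutation adjusted p-values of 0.107, 0.286 and 0.314.

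Markers of other cells moved in the comparison of unsorted with intact samples as well. Large-diameter neuron markers were called higher for 4 of 7 genes, endothelial markers for 4 of 6, satellite glia markers for 2 of 6 and red blood cell markers for 1 of 6, and fibroblast markers were called lower for 5 of 6, macrophage markers for 2 of 5 and the platelet marker tested for 1 of 1. Of the pan-neuronal, nociceptor and Schwann cell lists 0 genes were called, with 4, 1 and 0 at a limma adjusted p-value under 0.05, all higher. Fibroblast markers summed to 496 to 942 FPKM in intact and 168 to 337 FPKM in unsorted samples. Their part in the values of the release genes was not tested.

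Other genes of the release pathway, a list of 53 that hold active zone proteins, Rab GTPases, calcium channels, vesicle transporters and endocytic proteins, were read from the same fits. Between MACS-sorted and unsorted samples 7 of the 51 tested were called higher and 6 lower, 25.5% in all, against 20.7% of all genes tested (8.15% higher and 12.5% lower). The lowest was Slc17a7 (the vesicular glutamate transporter VGLUT1), with a mean of 80.7 ± 12.2 FPKM before and 6.59 ± 2.62 FPKM after sorting (SD, n = 4 each) and a log2-fold change of −3.71 ± 0.31 (SE, limma adjusted p = 1.5e-05). It was followed by Stxbp5l (tomosyn-2) at −2.05 ± 0.2 (SE, limma adjusted p = 2.9e-05), which a filter at a mean of 5 FPKM left untested. Then came Sh3gl2 (endophilin A1, an endocytic protein) at −1.64 ± 0.1 (SE, limma adjusted p = 2.6e-06). The highest was Slc17a8 (VGLUT3), with 3.19 ± 0.479 FPKM before and 12.7 ± 3.44 FPKM after sorting (SD, n = 4 each) and a log2-fold change of 1.93 ± 0.2 (SE, limma adjusted p = 4.5e-05). Next came Synpr (synaptoporin, a vesicle membrane protein), at 1.17 ± 0.087 (SE, limma adjusted p = 6.4e-06), and Rab27b (a GTPase of secretory vesicles), at 0.95 ± 0.12 (SE, limma adjusted p = 0.00012). Between unsorted and intact samples 9 of 51 were called higher and 1 lower, 19.6% in all, against 7.04% of all genes tested (4.29% higher and 2.76% lower). Slc17a7 was the highest there, at 1.06 ± 0.17 (SE, limma adjusted p = 0.0048), followed by Dnm1 (dynamin 1) at 0.79 ± 0.13 (SE, limma adjusted p = 0.0061) and Synj1 (synaptojanin 1) at 0.71 ± 0.16 (SE, limma adjusted p = 0.016), both of which serve endocytosis of vesicles. The call for Synj1 was lost with the red blood cell list removed. The lower gene was Unc13b (Munc13-2, a priming factor), at −0.81 ± 0.15 (SE, limma adjusted p = 0.0077). A filter at a mean of 5 FPKM left Unc13b untested.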

How the data were processed

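RNA-seq of 12 mouse DRG samples (4 intact, 4 unsorted, 4 MACS-sorted, by their labels) was used. The authors aligned reads to mm10 with TopHat2 with up to 2 alignments per read, merged lanes with SAMtools and computed FPKM with Cufflinks 2.1.1. The deposited values are FPKM for 24490 genes and were used unscaled, and 0 columns of samples were left unused. Depth is not part of the values, and the spacing of low FPKM gave estimates of 13400000 to 19300000 fragments per sample (150-base fragments assumed), from which no interval was drawn.

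Groups were compared with limma 3.58.1 in R 4.3.3 on log2(FPKM + 0.1), two-sided, with an intensity trend and Benjamini-Hochberg adjustment over all genes that averaged 1 FPKM or more in the 8 samples. The pseudocount makes fold changes of low genes smaller. limma replaces CuffDiff, which needs the aligned reads. Replicates are biological by the methods, and errors are SD or, for fold changes, SE. The code was tested on simulated data.

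Members and lists were chosen with earlier results of these data known. Of the 59 members 2 are not reported here. Sample values are given for the 16 core neuronal genes and every other member called. For pathway genes, fold changes are given for at most the 3 most changed calls per direction. Alternatives were other pseudocounts, filters, scalings, limits and fits, leaving out replicates in turn and, chosen after seeing the data, leaving out MACS-sorted replicates 3 and 4 together. Removal of the red blood cell list also scaled each sample to the same summed FPKM over the other genes.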

Additional observations from a re-analysis of the deposited data

Results flagged for a closer look

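A test for a sample standing apart from the other 3 of its group (Dixon's test) was run on 148 groups of values of the members and singled out 14, where chance gives about 1 in 20 groups, or 7.4 here. Intact replicate 1, the sample farthest from its group over all genes, accounted for 8. It was highest for Stx12 (85.2 FPKM, others 69.8 to 71.3), Stx7 (88.4 FPKM, others 54.5 to 59.4), Stx8 (8.77 FPKM, others 4.87 to 5.25) and Vamp8 (41.2 FPKM, others 16.5 to 18.4), all SNAREs of general traffic. It was lowest for Stx16 (14.7 FPKM, others 17.7 to 18.2), also a SNARE of general traffic. It was lowest as well for Sv2c (39.3 FPKM, others 76.8 to 83.5), Stxbp5 (5.04 FPKM, others 7.73 to 8.16) and Syt11 (193.5 FPKM, others 237 to 246).

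MACS-sorted replicate 4, the sample with the largest haemoglobin share, stood apart for 3 genes. It was highest for Stx3 (9.78 FPKM, others 4.40 to 5.06) and Stx5a (18.6 FPKM, others 13.9 to 14.6) and lowest for Syt9 (54.0 FPKM, others 77.2 to 81.6). Unsorted replicate 3 was highest for Snap47 (85.9 FPKM, others 76.6 to 78.0) and Syn1 (153.6 FPKM, others 138 to 141). Unsorted replicate 4 was highest for Snap91 (81.0 FPKM, others 72.4 to 73.8).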

How the results depend on the processing

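The 8 higher and 11 lower members between MACS-sorted and unsorted samples stayed within 1.5 times these counts under every alternative but one: with a log2 ratio beyond 1 required, 3 members were higher and 7 lower, and of the other pathway genes 2 were higher. Under the same limit, unsorted against intact gave 0 higher and 0 lower members and 1 higher and 0 lower pathway genes. The single lower member there became 2 with the red blood cell list removed and 3 with a mean above 1 FPKM allowed, and the lower pathway gene became 0 with a filter at 5 FPKM and 2 under quantile normalization or with a mean above 1 FPKM. Leaving out 1 replicate at a time gave 8 higher and 11 to 12 lower members between MACS-sorted and unsorted samples, and 5 to 10 higher and 0 to 2 lower between unsorted and intact samples (0 without intact replicate 3, 2 without intact replicate 2). Pathway genes ranged from 6 to 8 higher and 6 to 8 lower, and from 6 to 9 higher with 1 lower. Signs of fold changes were followed for the 16 core genes and every other member called, and not for the remaining members. Values that turned in sign, none of them called, were Snap23 (0.21 under quantile normalization), Sv2a (−0.0056 without MACS-sorted replicate 2, −0.061 without replicates 3 and 4), Syn3 between unsorted and intact samples (−0.098 to 0.19 with 1 replicate left out, the only value below 0 being that without intact replicate 1) and Stxbp6 in the same comparison (−0.0085 with the red blood cell list removed, −0.056 to 0.12 with 1 replicate left out). Causes were not tested. The log2 ratios of pairs between MACS-sorted and unsorted samples kept their sign when 1 replicate was left out, from −4.73 to −4.13 for Syt2 to Syt1 and from −2.58 to −2.43 for Vamp1 to Vamp2.

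Replicate numbers do not pair the samples: deviations of samples with the same number correlated at −0.143 to 0.0514. With the replicate block, 8 higher and 11 lower members were called between MACS-sorted and unsorted samples, and 7 higher and 2 lower between unsorted and intact samples, and 0 to 1 of the 4 numbers was its own best match. Members below 1 FPKM were too low to test, exact permutation tests of 4 against 4 reach no p below 0.0286, and FPKM of overlapping genes may mix reads of both if strand was not used.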
